A study of Mus musculus with 6 samples.

Results

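The regions open in Th9 only were places in the genome where both Th9 libraries had an ATAC-seq peak and no Th2 or Th17 library had one. Peaks of the 6 deposited lists that overlapped or touched on chromosomes 1 to 19 gave 225467 regions once joined, and a region counted as open in a library with at least 1 peak there. The members were chosen by these calls alone. They numbered 3051, which was 1.35% of all regions. The same rule gave 6561 regions open in Th2 only and 3484 open in Th17 only.

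ATAC-seq uses a transposase that cuts DNA where chromatin is accessible. Naive CD4+CD62L+ T cells from wild-type C57BL6/J mice were cultured with anti-CD3 and anti-CD28. Th2 cultures received IL-4, IL-2 and anti-IFNγ. Th9 cultures received the same agents plus TGF-β1. Th17 cultures received IL-6, TGF-β1, IL-23 and IL-1β with antibodies against IFNγ, IL-4 and IL-2. Cells were collected on the fifth day and dead cells were removed. Each subset had 2 libraries, named replicates 1 and 3, and nothing in the labels says whether these came from separate mice. All cells were polarised in vitro, so the regions describe cultures and not T cells of a tissue.

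Th9 cells are helper T cells that make IL-9 and take part in allergic inflammation, defence against worms and anti-tumour responses. IL-2 activates STAT5 and IL-4 activates STAT6, and STAT dimers bind a palindrome made of the arms TTC and GAA. TGF-β signals through SMAD proteins. NF-κB factors act downstream of the antigen receptor, CD28 and TNF receptor family members, and AP-1 dimers such as those with BATF act with IRF4 in many helper T cells. Accessible regions away from gene starts are often enhancers, and those that open in a single subset are the usual place to look for the factors that set it apart.

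The promoters of lineage genes bore on the labels. Il9 and Il4 had a promoter peak in both Th9 and both Th2 libraries and in neither Th17 library. Il13 had one in the Th2 libraries alone, and Il17f in the Th17 libraries alone. Il17a had one in both Th17 libraries and in Th2 replicate 3. Il5, a Th2 cytokine gene, had one in all 6, the Th17 libraries included. Cd3e, a subunit of the T cell receptor complex, had one in all 6, and Cd4 in 4, without Th9 replicate 1 and Th17 replicate 1. Of 25 marker genes of B cells, myeloid cells and other cell types, 8 and 10 had a promoter peak in the Th9 libraries, against 7 to 9 in the other 4. The lists held 94854 to 136987 peaks on these chromosomes. Th9 replicate 1 had 136987 and Th9 replicate 3 had 98200. The weakest peak had a fold enrichment of 2.11 in Th9 replicate 1 and of 1.71 to 1.83 in the other 5 libraries. The lists carry no read totals, so the depth of each library is unknown here.

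The sequences that carry the main pattern come first. A STAT word was taken as TTCNNNGAA, a run that reads the same on both strands, and was looked for in the middle 300 bp of each region. Strength was the percentile of a peak's fold enrichment within its own list, averaged over the libraries that called the region. For members these were both Th9 libraries, and for other kinds of region their own libraries. The 5 strongest members that held the word are shown around it, on the plus strand of GRCm38, with the word in capitals and the name of the gene with the nearest protein-coding start.
Rgs1 (chr1:144337554-144337682): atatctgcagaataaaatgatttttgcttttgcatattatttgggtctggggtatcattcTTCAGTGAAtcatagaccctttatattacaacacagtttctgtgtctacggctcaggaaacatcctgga
Stfa3 (chr16:36505983-36506137): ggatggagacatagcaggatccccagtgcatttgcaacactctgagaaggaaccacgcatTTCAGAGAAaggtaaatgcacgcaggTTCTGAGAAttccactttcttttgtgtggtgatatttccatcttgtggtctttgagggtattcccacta
Zkscan3 (chr13:21385222-21385350): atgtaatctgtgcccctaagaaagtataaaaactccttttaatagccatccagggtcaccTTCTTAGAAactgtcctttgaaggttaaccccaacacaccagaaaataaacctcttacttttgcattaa
St3gal2 (chr8:110933432-110933597): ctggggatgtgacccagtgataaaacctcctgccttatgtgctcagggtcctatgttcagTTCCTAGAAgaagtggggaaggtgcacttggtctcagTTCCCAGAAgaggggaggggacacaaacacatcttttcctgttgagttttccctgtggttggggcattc
Ccdc32 (chr2:118999703-118999831): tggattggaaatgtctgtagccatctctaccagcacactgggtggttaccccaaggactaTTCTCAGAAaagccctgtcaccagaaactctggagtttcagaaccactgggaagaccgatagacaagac

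Each of these 5 regions lay away from promoters, at 13401 to 88001 bp from the nearest start. The region named for Rgs1, a regulator of G-protein signalling in lymphocytes, stood at the percentile 89.3 in Th9 replicate 1 and 87.7 in Th9 replicate 3. The Stfa3 region had 2 STAT words and percentiles of 89.9 and 85.2, and lay in an intron. At St3gal2, which encodes a sialyltransferase, the intronic region also had 2 words and stood at 89.0 and 83.6. The regions near Zkscan3 and Ccdc32 stood at 86.8 and 86.5, and at 87.4 and 84.3. In the region near Zkscan3, 54.0% of the middle 300 bp was masked as repeat. That window held 2 STAT words, of which the stretch shown has 1, and also 1 NF-κB word, as defined below.

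A second set shows a locus with several such regions. Ctla4, an inhibitory receptor of activated T cells, had 3 members of its 9 regions within 10 kb of the annotated body. All 3 held a STAT word, and they lay 28433, 21737 and 19820 bp upstream of the protein-coding start.
Ctla4 distal (chr1:60880222-60880395): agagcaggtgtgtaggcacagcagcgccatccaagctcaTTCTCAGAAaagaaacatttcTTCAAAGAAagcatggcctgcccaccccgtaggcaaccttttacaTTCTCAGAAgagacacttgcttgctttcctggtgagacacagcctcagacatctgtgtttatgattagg
Ctla4 middle (chr1:60886867-60886995): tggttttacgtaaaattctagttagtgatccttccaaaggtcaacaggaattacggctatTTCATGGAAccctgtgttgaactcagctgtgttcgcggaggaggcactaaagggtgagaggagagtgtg
Ctla4 proximal (chr1:60889038-60889147): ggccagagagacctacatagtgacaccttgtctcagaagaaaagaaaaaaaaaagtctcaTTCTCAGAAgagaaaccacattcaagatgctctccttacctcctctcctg

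The distal region held 3 STAT words, and its percentiles were 71.6 and 70.7 in Th9 replicates 1 and 3. The middle one was the strongest, at 84.5 and 86.1, and the proximal one stood at 69.0 and 64.9. No Th2-only region lay at this locus, while 4 of its 9 regions were called in all 6 libraries. The map of the Ctla4 locus shows the 3 members side by side, with the shared regions on both flanks.

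**Figure D1:**
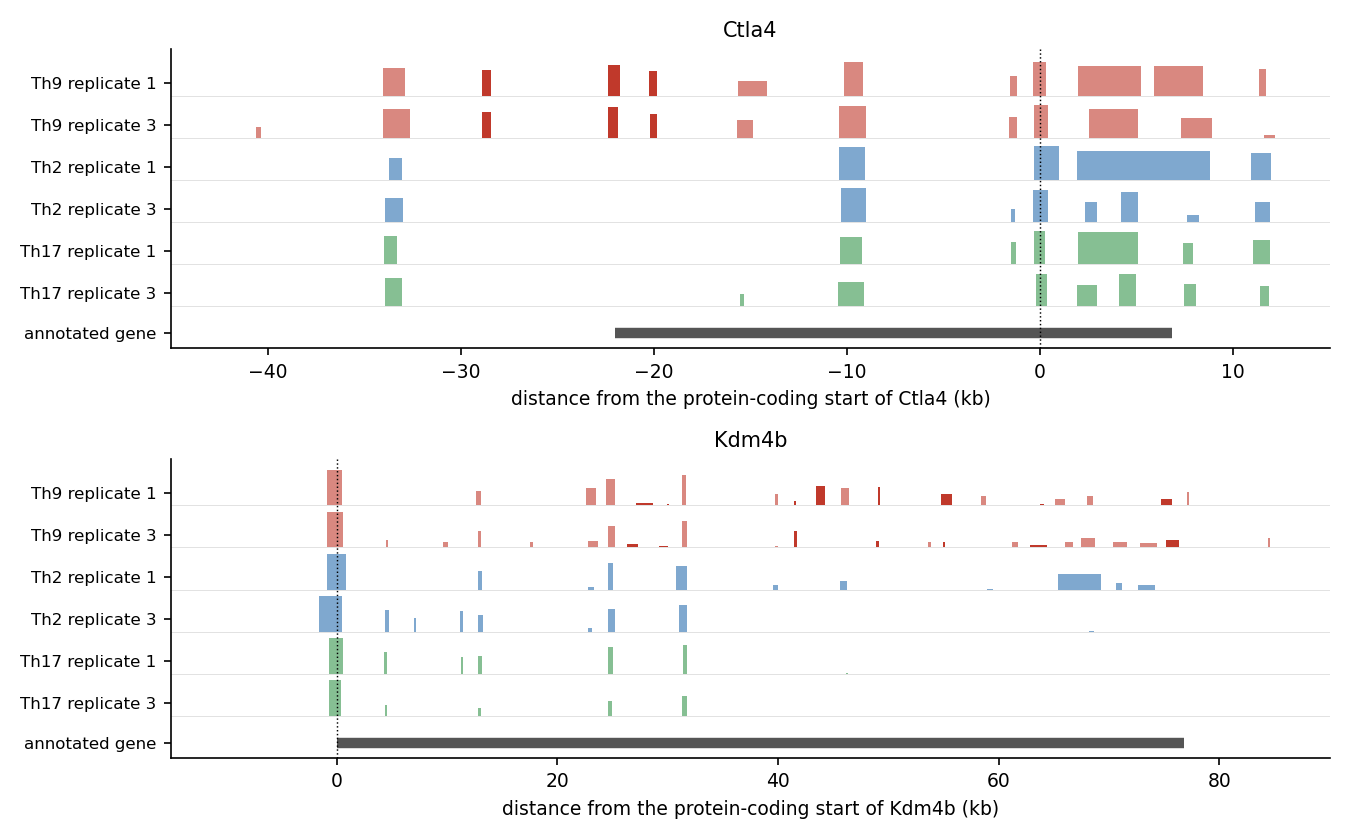
Peaks of each library at Ctla4 and Kdm4b, plotted by distance from the protein-coding start in kb, with bar height in proportion to the within-list percentile and the annotated gene as a grey bar. Dark red bars are Th9-only regions: 3 at Ctla4 between 19820 and 28433 bp upstream, and 8 lower ones inside Kdm4b.

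The third set shows members with both the STAT word and an NF-κB word, GGGANTTTC on either strand. Of members with both words and at most 50% repeat in the window, the 3 strongest are shown, with both words in capitals.
Jarid2 (chr13:44531171-44531261): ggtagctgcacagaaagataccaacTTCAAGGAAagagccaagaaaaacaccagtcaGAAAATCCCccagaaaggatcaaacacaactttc
Socs1 (chr16:10752471-10752623): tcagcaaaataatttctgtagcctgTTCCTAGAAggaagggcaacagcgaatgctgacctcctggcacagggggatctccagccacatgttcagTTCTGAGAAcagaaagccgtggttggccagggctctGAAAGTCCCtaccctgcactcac
Ccl22 (chr8:94740006-94740105): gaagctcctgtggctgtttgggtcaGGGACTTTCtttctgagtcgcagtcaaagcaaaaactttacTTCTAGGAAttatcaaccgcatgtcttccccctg

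The region near Ccl22, the gene of a chemokine that attracts CCR4-bearing cells, lay 5308 bp upstream of its start. Its percentiles were 81.4 and 81.3 in the Th9 libraries. Socs1 encodes a feedback inhibitor of cytokine receptors that signal through JAK kinases. The region nearest its start was 32674 bp away and stood at 82.3 and 81.9, with 2 STAT words. The region nearest Jarid2, which encodes a partner of the Polycomb complex PRC2, lay 199443 bp from that start and stood at 88.9 and 78.6.

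For contrast, the strongest members without a STAT word at Kdm4b and Kif26a are shown around their middle, with no capitals. These loci had many members, as described further on, but weak ones: the percentiles were 52.1 and 19.03 for the first and 38.1 and 23.0 for the second.
Kdm4b (chr17:56375060-56375188): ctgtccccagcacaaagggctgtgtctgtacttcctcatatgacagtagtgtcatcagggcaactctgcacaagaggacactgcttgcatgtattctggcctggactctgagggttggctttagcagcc
Kif26a (chr12:112156613-112156741): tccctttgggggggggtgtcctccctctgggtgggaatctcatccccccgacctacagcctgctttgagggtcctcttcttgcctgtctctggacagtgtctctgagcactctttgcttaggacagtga

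Most Th9-only regions were weak peaks. In Th9 replicate 1 their percentiles ran from 1.08 to 93.4 with a median of 33.4, and in Th9 replicate 3 from 0.388 to 95.02 with a median of 25.2. The median fold enrichments were 2.34 and 2.04. A share of 28.1% stood above the middle of the list in Th9 replicate 1 and 19.6% in Th9 replicate 3, and 388 members did so in both. The percentile was higher in replicate 1 for 61.1% of members, with a median difference of 5.54 points. Across members the 2 libraries gave Pearson's r = 0.49 and Spearman's rho = 0.41. This describes 3051 regions of 2 libraries, which are not independent replicates. Regions that both Th9 libraries called, whatever the others did, numbered 71198, with a median Th9 percentile of 65.1 against 29.3 for the members. Members had a median width of 504 bp.

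**Figure D2:**
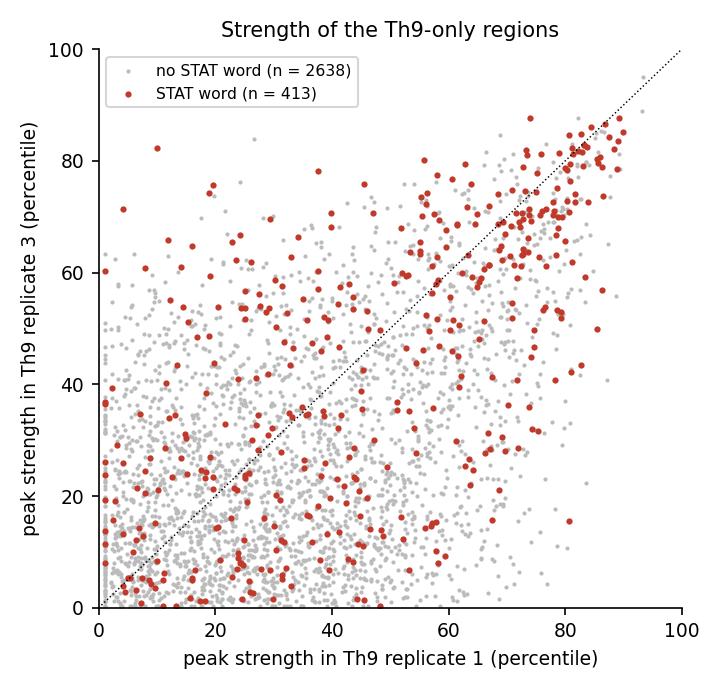
Within-list percentile of each of the 3051 Th9-only regions in Th9 replicate 1 (horizontal) and Th9 replicate 3 (vertical), with the 413 that hold a STAT word in red and the dotted line marking equal values. Red points lie over the whole plot, and make up 43.2% of the 222 members at 60 or over in both libraries.

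The rule has a threshold in each library, since a peak is either called or not. Just inside it, 30 members lay within 100 bp of a Th2 or Th17 peak without touching one, the nearest at 7 bp, and their median percentile was 22.7. The median gap to the nearest such peak was 3748 bp. Just outside it, 3595 regions were called in both Th9 libraries and in exactly 1 other library, with a median Th9 percentile of 33.2. The extra call came from Th2 replicate 1 in 1370, from Th2 replicate 3 in 1101, from Th17 replicate 1 in 773 and from Th17 replicate 3 in 351. That single call stood at a median percentile of 27.1, 33.6, 26.6 and 21.1 in these lists. Regions called in Th9 replicate 1 alone numbered 25538 and those in Th9 replicate 3 alone 10066, with medians of 21.8 and 19.1.

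The Th9-only regions were mostly distal. Of the 3051, 1407 were intergenic (46.1%, 95% Wilson interval 44.4 to 47.9), 1240 lay in introns (40.6%), 345 touched an exon (11.3%, 10.2 to 12.5) and 59 a promoter (1.93%, 1.502 to 2.486). A promoter was the stretch from 1000 bp upstream to 100 bp downstream of a protein-coding start. Regions called in all 6 libraries touched a promoter in 25.01% of cases, and all regions in 6.71%. The share was 1.30% in Th2-only and 1.26% in Th17-only regions, so a low share was not particular to the members. The intervals here and elsewhere cover counting error only, and regions of the same libraries are not independent samples.

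Exons were more frequent among Th9-only regions than among the other subset-only regions. The share was 11.3%, against 6.42% (5.85 to 7.04) in Th2-only and 5.597% (4.88 to 6.41) in Th17-only regions. Regions called in exactly 2 libraries of different subsets, a yardstick with the same number of calls, gave 4.61%. Regions shared by the Th9 and Th2 libraries, without a Th17 call, gave 10.5% (9.62 to 11.4), an interval that overlapped that of the members. Of the 345 exonic members, 305 overlapped coding sequence. The median distance from a member to the nearest protein-coding start was 37338 bp, against 45635 bp for Th2-only, 51489 bp for Th17-only and 92242 bp for the yardstick regions. A share of 20.1% lay within 10 kb of a start and 23.9% beyond 100 kb.

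**Figure D3:**
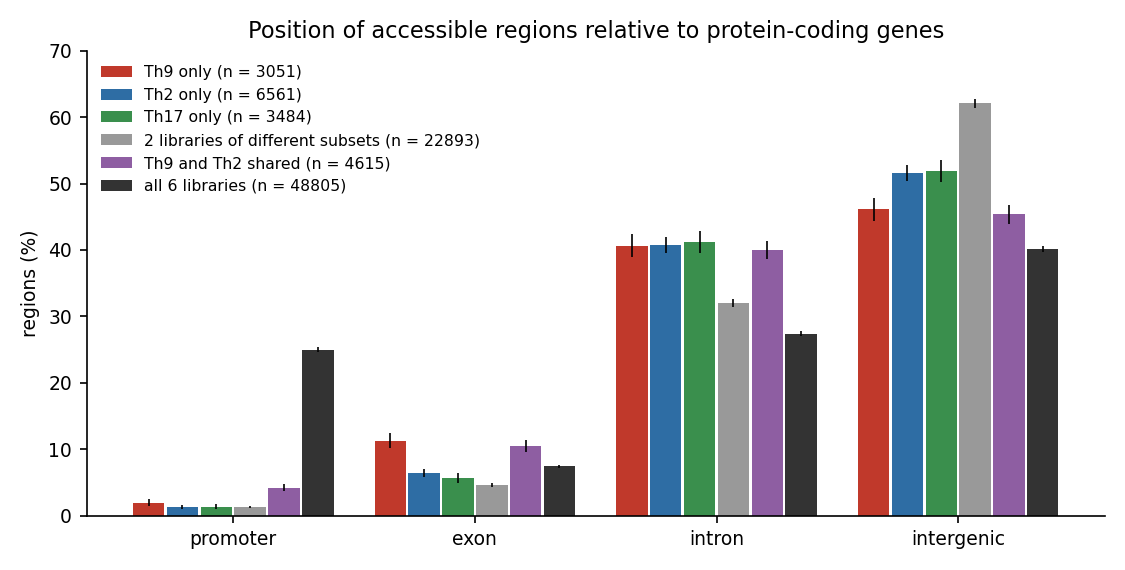
Share of regions (%) at promoters, exons, introns and between genes for 6 kinds of region, with 95% Wilson intervals as error bars. Th9-only regions (red) have the tallest exon bar, at 11.3%, and a promoter bar of 1.93%. The promoter bars are 1.30% for Th2-only and 1.26% for Th17-only regions, and 25.01% for regions called in all 6 libraries.

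Base composition and exon share went together among the members, but did not rank alike across the kinds of region. The middle 300 bp of Th9-only regions had a median GC content of 50.0%, against 45% for Th2-only, 47.0% for Th17-only and 48.0% for the yardstick regions. Regions shared by Th9 and Th2, with an exon share of 10.5%, had a median of 45.3%. Regions called in all 6 libraries, with an exon share of 7.43%, had 50.7%. Exonic members had a median of 55%. Among members the exon share rose with GC content, from 3.70% under 40% GC to 10.4% at 50 to 55%. It was 22.5% at 55 to 60% GC and 35.1% above that. In regions of 55 to 60% GC, 2.46% were Th9-only and 1.07% Th2-only, and in regions under 40% GC the shares were 1.02% and 5.85%. Between these ends the Th9-only share was 1.101%, 1.07% and 1.76%, and above 60% GC it was 1.11%. The peak lists themselves differed in this. Peaks in the lowest tertile of fold had a median GC content of 50.8% in Th9 replicate 3, 49.3% in Th9 replicate 1 and 48.2 to 48.8% in the other 4 libraries. The part of base composition in the calls was not tested.

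Strength separated the members into unlike kinds. Members were split at mean percentiles of 20, 40 and 60, a split chosen after the values were seen. The 876 members under 20 had a median GC content of 51.3% and touched an exon in 16.6% of cases. The 333 members of 60 and over had 45.7% GC and touched an exon in 6.31%. Their median distances from a start were 40761 and 34717 bp. Promoters made up 2.63% of the weakest and 1.80% of the strongest.

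The STAT word set the strong members apart. It was present in 413 of the 3051 Th9-only regions, 13.5% (12.4 to 14.8), against 8.6% of all regions, 9.53% of Th2-only and 8.84% of Th17-only regions. Regions shared by Th9 and Th2 held it more often over all strengths, in 17.8% (16.7 to 18.9), and in 17.0% at 40 to 60. By strength, the shares were 7.99% of members under 20, 9.13% from 20 to 40, 16.9% from 40 to 60 and 38.4% (33.4 to 43.8) of those at 60 and over. In the same top range the word was in 10.4% (8.92 to 12.0) of 1526 Th2-only regions and in 9.71% (7.85 to 12.0) of 803 Th17-only regions. Among 513 regions of the top range that were called in exactly 2 libraries of different subsets, the share was 13.3% (10.6 to 16.5). It was 8.44% in the 34848 regions of the top range called in all 6 libraries. Weak members thus held it about as often as regions at large, and strong members far more often. Of the 100 strongest members, 48 held it.

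The split was then taken in other ways. Ranked by Th9 replicate 3 alone, 39.2% of 344 members of 60 and over held the word, and by Th9 replicate 1 alone 27.0% of 545. Where both libraries stood at 60 or over, 43.2% of 222 did. With regions that were mostly repeat left out the share was 39.3%. The difference between strong and weak members was present in each range of GC content. Among members under 45% GC, the word was in 45.9% of the 157 strong and 14.0% of the 121 weak ones. From 45 to 50% GC the shares were 40.2% and 7.08%, and at 50% and over 23.6% and 6.998%. The share was 41.4% beyond 10 kb from a start and 27.8% within it. With 1 Th9 library left out the set itself grew, and the share at 60 and over was 31.5% of 620 without Th9 replicate 1 and 14.9% of 1600 without Th9 replicate 3.

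In strong members the arms of the palindrome favoured a single spacing. With TTC and GAA set 0 to 8 bases apart, 38.4% of the strong members held the pair at 3 bases. At 4 bases it was 15.9% (12.4 to 20.2), at 6 bases 15.02%, and at the other spacings 2.40 to 12.6%. Members under 20 held the pair at 3 bases in 7.99% and at 4 bases in 6.51%. Strong Th2-only regions gave 10.4% and 9.76%, and strong Th17-only regions 9.71% and 5.85%. STAT5 dimers favour the spacing of 3, and STAT6 is known to bind the spacing of 4 as well.

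Th9 and Th2 cultures both held IL-4 and IL-2, and the part of these cytokines was not tested. Strong regions shared by Th9 and Th2 were counted in the same way. These had a peak in each of the 4 Th9 and Th2 libraries and none in a Th17 library. Of 2362 with a mean percentile of 60 and over, 21.9% (20.3 to 23.6) held the pair at 3 bases and 14.9% (13.5 to 16.4) at 4 bases. In the middle 300 bp the STAT word was therefore less frequent there than in strong Th9-only regions. It was more frequent than in strong Th2-only or Th17-only ones, and the intervals did not overlap. Over all strengths the shared regions were wider, with a median of 844 bp against 504 bp for the members. The window thus covered a smaller part of them.

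The STAT words of strong members also lay near the middle of the region. Within 100 bp of the middle there were 19.97 words per 100 regions per 100 bp, against 6.08 at 300 to 500 bp from it, a ratio of 3.28. The ratio was 0.876 for members under 20, 1.13 for strong Th2-only and 1.03 for strong Th17-only regions. Of the strong members, 31 held more than 1 word in the middle 300 bp. Of the 166 words in them, the most frequent centre, read on either strand, was tca or its reverse complement, with 30 words.

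**Figure D4:**
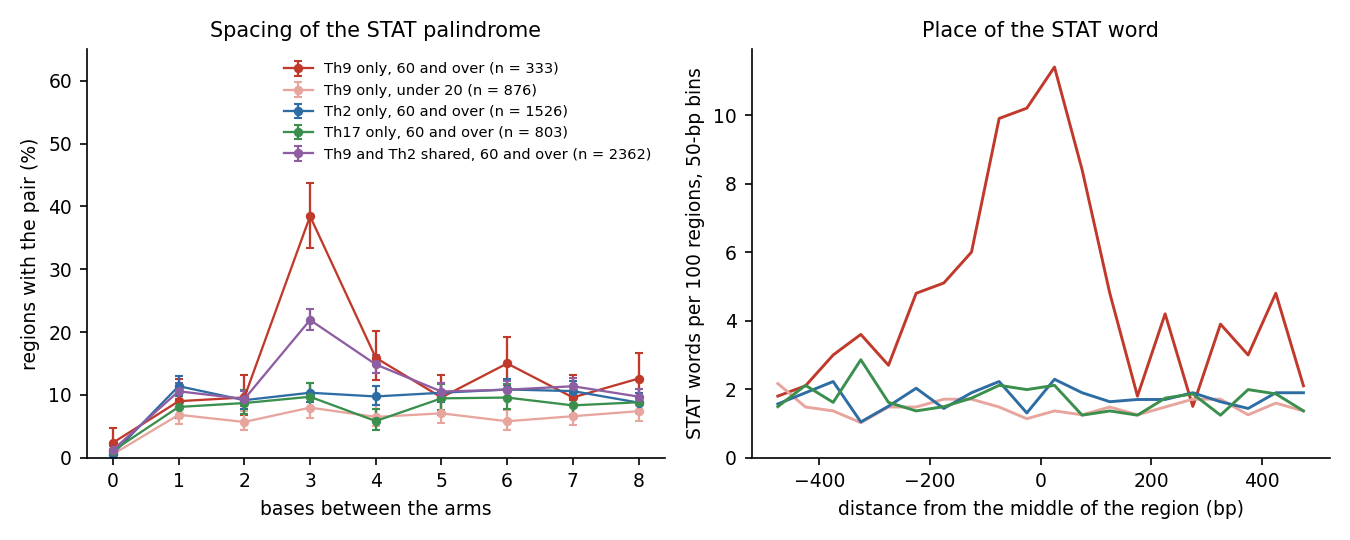
Left, share of regions (%) with TTC and GAA at 0 to 8 bases apart, with 95% Wilson intervals; right, STAT words per 100 regions in bins of 50 bp by distance from the middle (bp), in the same colours. Strong Th9-only regions (red) peak at 3 bases, 38.4%, and within 100 bp of the middle. Strong regions shared by Th9 and Th2, drawn on the left only, show 21.9% at 3 bases. Weak Th9-only, strong Th2-only and strong Th17-only regions show 7.99 to 10.4% at 3 bases. Their ratios between the middle and the flanks are 0.876 to 1.13.

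The NF-κB word followed the same course at a lower level. It was present in 57 members, 1.87%, against 0.982% of all regions. In members of 60 and over it was in 24 of 333, 7.21% (4.89 to 10.5), against 0.571% of members under 20. With 1 library left out the share was 2.44% of 1600 without Th9 replicate 3 and 4.53% of 596 without Th2 replicate 3. Strong Th2-only regions held it in 0.786% and strong Th17-only regions in 1.49%. Both words together were in 9 of the 333 strong members.

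Over all strengths the AP-1 word, TGANTCA, was less frequent in Th9-only regions than in regions at large. It was in 8.33% (7.40 to 9.36) of Th9-only regions, under the 11.8% of all regions and well under the 23.4% of Th2-only and 15.5% of Th17-only regions. It was most frequent in the strong regions of all 3 sets, at 17.4% (13.7 to 21.9) of strong Th9-only, 36.8% (34.4 to 39.3) of strong Th2-only and 22.9% of strong Th17-only regions. In the same top range 16.4% of all regions and 11.8% of those called in all 6 libraries held it, so strong members were not low beside these. The GATA word AGATAA was in 17.7% of strong Th9-only and 24.4% of strong Th2-only regions. Runx factors are active in all helper T cells, and their word TGTGGT was in 35.7% (30.8 to 41.0) of strong Th9-only, 24.6% of strong Th2-only and 42.7% of strong Th17-only regions. The IRF word GAAANNGAA was in 13.2% and 14.2% of strong Th9-only and Th2-only regions. The T-cell factor word CTTTGA was in 24.6%, 24.0% and 37.2% of the 3 strong sets. The SMAD palindrome GTCTAGAC was in 0.459% of all members and 0.601% of the strong ones, too few to compare. The ETS word CGGAAGT was in 0.819%, the T-box word AGGTGTGA in 1.44% and the KLF/SP word GGGCGGG in 2.85% of members, against 1.13%, 1.46% and 4.38% of all regions. A word match is a run of letters and not a measured binding site.

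**Figure D5:**
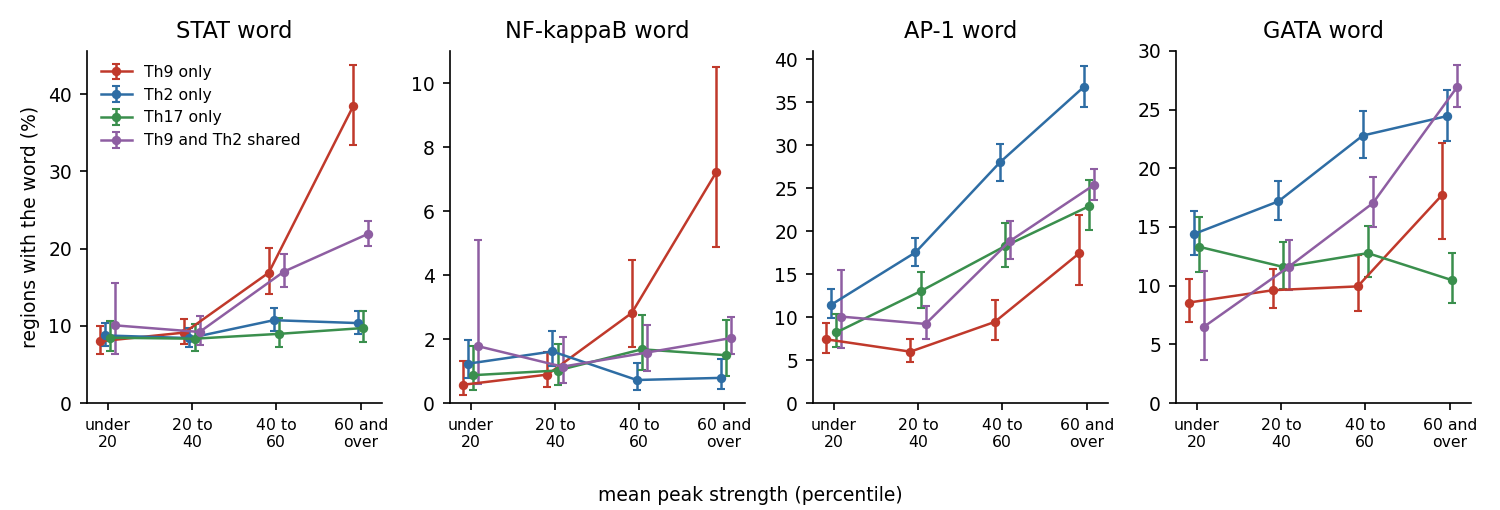
Share of regions (%) with the STAT, NF-κB, AP-1 and GATA words by mean within-list percentile, for Th9-only, Th2-only, Th17-only and Th9-and-Th2-shared regions, with 95% Wilson intervals. For Th9-only regions STAT and NF-κB climb to 38.4% and 7.21%, above the other 3 kinds of region, while AP-1 is lowest in Th9-only regions of 60 and over, at 17.4%.

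The 10 strongest members included 5 with a STAT word. The strongest of all, at percentiles 93.4 and 95.02, was a narrow region of 178 bp upstream of Rec114, with 60.3% of its window masked as repeat. The second, 187 bp in an intron of Frmd6, stood at 93.2 and 88.9. Neither held a STAT word, and both were much narrower than the median member. The others without one lay near Khdc3 (87.5 and 84.6), Lpp (86.7 and 85.3) and Ptger2 (86.1 and 85.3), the gene of a prostaglandin E2 receptor. Each of the 10 lay over 10 kb from a start.

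Members at promoters were few and mostly not strong, with a median mean percentile of 27.7 and a highest of 74.1. The strongest, at the β-defensin gene Defb42, stood at 76.8 and 71.4 and held a STAT word. Ctf1, which encodes cardiotrophin 1, followed at 64.8 and 70.5, with a STAT and an AP-1 word. The region at Nos2, the gene of inducible nitric oxide synthase, stood at 66.3 and 64.5. At the trefoil factor gene Tff1 the Th9 libraries differed more, at 82.5 and 41.7, and likewise at Serpinb2, which encodes an inhibitor of plasminogen activators, at 78.2 and 40.9. The protease gene Adamts4 (57.2 and 61.3), the receptor gene Notch3 (49.3 and 61.8), the activin-binding protein gene Fstl3 (52.6 and 53.6), the receptor gene Pdgfra (62.4 and 42.4) and the Tec kinase gene Txk (41.7 and 58.2) completed the 10. Of these 10, 4 held a STAT word.

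Members tended to have other members as neighbours. Each member had a neighbour on either side, counted as 6102 neighbours, and 230 of these were themselves members. That was 3.77% (3.32 to 4.28), against 1.35% of all regions, a ratio of 2.79. Adjacent members were counted from both sides, which the interval does not allow for. The ratio was 2.15 for Th2-only, 2.43 for Th17-only and 1.18 for the yardstick regions, and 2.93 for regions shared by Th9 and Th2, so the members were not the most clustered kind. By strength the share of neighbours was 3.31% under 20, 4.28% from 20 to 40, 3.15% from 40 to 60 and 4.20% at 60 and over, with no steady rise. Within 50 kb of another member lay 1021 members, in 409 runs, and the other 2030 stood alone.

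The longest run held 14 members over 238.4 kb around Aspg and Kif26a, where 15.6% of 90 regions were members, 1 was Th2-only and none was Th17-only. Their mean percentiles ran from 6.65 to 30.5 and 1 of them held a STAT word. A run of 8 lay inside Kdm4b, in 50.0 kb. The next, with 7 members each, spanned Prdm11, Trp53i11 and Tspan18 and a stretch on chromosome 4 that overlapped no protein-coding gene with a settled name. The fifth held 6 members across Ksr2 and Nos1. The 5 runs had median GC contents of 48.0 to 54.3% and median percentiles of 20.5 to 26.1. So the longest runs were made of weak peaks, and 2 of their 42 members held a STAT word.

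The loci with the most members were long genes. Of 20807 protein-coding genes, 1882 had a member within 10 kb of the body (9.05%), 314 had at least 2, 109 at least 3 and 21 at least 5. Genes with a member had a median length of 49.5 kb and those with at least 3 of 222 kb, against 17.6 kb for all genes. Atp2b2, which encodes a plasma membrane calcium pump, had 9 members of 87 regions, with 1 Th17-only and no Th2-only region. Cacna1c, a voltage-gated calcium channel gene, had 9 of 151. The receptor gene Fgfr2 had 9 of 491, over an annotated body of 2961 kb. The histone demethylase gene Kdm4b had 8 of 31 in 76.8 kb, and Igsf21 had 8 of 81, neither with a region open in Th2 only or Th17 only.

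Tbc1d22a had 7 members of 55 regions and Camta1 7 of 219. Kif26a, a kinesin family gene, had 6 of 21, which at 28.6% was the highest share among the 10 genes. Glis1 had 6 of 42 and Adamts17 6 of 57. Across the 10 genes the median percentile of members was 15.5 to 30.6 and the median GC content 48.3 to 56.2%. None of these loci had more than 1 member with a STAT word. Of the 109 genes with at least 3 members, 31 also had a Th2-only region and 27 a Th17-only region within 10 kb, and 61 had neither. Of all protein-coding genes, 15.3% had a Th2-only region and 8.36% a Th17-only region. Both counts thus stood above the shares of genes at large, which were much shorter.

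Loci with several strong members were other ones. Of genes with at least 2 members of 60 and over, a cut chosen after the values were seen, there were 9. Rbpj and Ctla4 had 3 each. Rbpj encodes the DNA-binding partner of Notch receptors, and its strong members, all intronic, stood at 62.6 and 74.3, 74.9 and 55.9, and 73.6 and 74.5 in Th9 replicates 1 and 3. None of these held a STAT word. The remaining member at Rbpj stood at 59.1 and 42.1, and 2 Th2-only regions lay at this locus. Rora, which encodes a nuclear receptor of several innate and helper lymphocyte programmes, had 4 members, of which 2 were strong, at 83.3 and 82.9 and at 82.0 and 79.1. The first held a STAT word. Rora is also on the Th17 list, and no Th2-only region lay at it. St3gal2, Arnt, Dscaml1, Pard3b, Cdrt4 and Nsun4 had 2 strong members each.

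Gene lists were counted by whether a member lay within 10 kb of the body, against 9.05% of all protein-coding genes. The genes of the Th9 programme had one in 5 of 30, 16.7%, while 7 of the 30 had a Th2-only region, which 15.3% of all protein-coding genes had. These were Il1rl1, which encodes the IL-33 receptor, Ccl22, Ccl17, Serpinb2 and Nos2. The Il1rl1 region lay in an intron 8701 bp from the start, stood at 47.0 and 70.8 and held 3 STAT words. The Ccl17 region, 1953 bp upstream, stood at 72.1 and 41.9 and held none. Il9 itself had no member within 50 kb, among 11 regions, and 2 within 100 kb.

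Of 45 transcription factors linked to Th9 cells, 6 had a member, 13.3%, and 12 a Th2-only region. Besides Rbpj and Rora these were Bach2 (23.4 and 32.9), Smad3 (1.08 and 36.9), Smad4 (28.5 and 23.0) and Erg, with 2 regions, of which the stronger stood at 56.4 and 68.3. Of 22 genes known as IL-2 and STAT5 targets, 2 had one, 9.09%, and 9 a Th2-only region. The region 6978 bp upstream of Il2rb, the gene of the IL-2 receptor β chain, stood at 69.3 and 66.2, and that 3521 bp upstream of Myc at 70.2 and 54.7. Neither held a STAT word. Of 29 genes of the TGF-β pathway, 6 had one, 20.7%, and 3 a Th2-only region. The 6 were Itgav, Tgfbr3, Smurf1, Lrrc32, Smad6 and Ltbp3. Their mean percentiles were 13.3 to 34.6, so all were weak, and the pathway's genes were long, with a median of 52.1 kb.

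The other lists had small numbers. Th2 genes had a member in 4 of 18, including a region between Rad50 and Il5, 5569 bp upstream of Rad50, at 78.2 and 54.9. The same region counted for both genes. Rad50 holds the control region of the Th2 cytokine locus in its body, and this member lay outside that body. Th17 genes had one in 2 of 17 and Th1 genes in 1 of 14. Markers of other cell types had one in 5 of 25, namely Pax5, Ebf1, Cd68, Cd79b and Ms4a1, known from B cells and macrophages. The region in Ebf1 stood at 85.6 and 79.6 and that near Ms4a1 at 61.1 and 74.9, and the other 3 at mean percentiles of 10.2 to 33.1. The part of other cells in these calls was not tested. With 14 to 45 genes a list, these counts differ from the background by a few genes.

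Regions called in all 6 libraries were not members, but those near a member were picked through the Th9 calls. Of the 48805 regions called in all 6 libraries, 3215 lay within 20 kb of a Th9-only region. Their mean percentile minus that of the other 45590 was -0.14 in Th9 replicate 1 and 0.29 in Th9 replicate 3. In Th2 replicates 1 and 3 it was -1.33 and -0.57, and in Th17 replicates 1 and 3 -0.71 and -2.03. Both Th9 libraries stood above all 4 others. The Th9 mean exceeded the mean of the other 4 by 1.23 percentile points (one-sided exact permutation test over libraries, p = 0.0667, the smallest of 15 arrangements). The design cannot reach 0.05, and the difference is small beside the spread of percentiles. Members were not chosen anew for each arrangement. The p-value therefore cannot tell a trait of the Th9 libraries from the way the regions were picked.

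The STAT word made little difference to the strength of regions open in all 6 libraries. The 4086 of them with the word stood 0.23 points above the rest in Th9 replicate 1 and -0.29 points in Th9 replicate 3. The values were -0.73 and -0.28 in the Th2 libraries and -1.31 and -2.17 in the Th17 libraries. Here the Th9 and Th2 libraries overlapped (difference of Th9 from the other 4 of 1.09 points, one-sided exact permutation test, p = 0.133). This comparison was also chosen after the values were seen.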

How the data were processed

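ATAC-seq libraries of Th9, Th2 and Th17 cultures were analysed as deposited, with 2 libraries for each subset. Per the labels and the study's methods, the authors trimmed reads with Trim Galore, aligned them with bowtie2 to mm10, removed duplicates, mitochondrial reads and reads of low mapping quality, and called broad peaks in each library with MACS2 2.1.0 without a control. The deposited lists give each peak a fold enrichment (a ratio), a −log10 p and a −log10 q, and a score made from the −log10 q, which was not used. Read totals were not used here. A fold depends on depth, so strength was compared as a percentile within each list.

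Peaks of chromosomes 1 to 19 that overlapped or touched were joined. A library called a region with an overlap of at least 1 bp. Genes were those of GENCODE M21 and sequence was that of GRCm38, the same build as mm10. A region touching a promoter was counted there, otherwise as exon, intron or intergenic, for protein-coding genes. There were 11 short words searched on both strands of the middle 300 bp, where words of different factors may overlap. Shares carry 95% Wilson intervals. No test was run on the members themselves. For regions called in all 6 libraries, the libraries were permuted exactly (one-sided), with the members kept as found. The functions were tested on simulated peak lists. The analysis used Python 3.11.

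The members, the gene lists, the words and the loci were chosen with earlier results of these data known. Named were the members of the first 4 gene lists that had a region, the 10 genes with the most members, the 10 strongest members, the 10 strongest at promoters and the 5 longest runs by number of members. Genes with provisional names (Gm or Rik) were skipped. The split by strength, the spacing of palindrome arms and the loci with several strong members were added after the values were seen. Alternatives were a −log10 q of at least 5, lists of equal length, peaks up to 100 bp apart joined, either Th9 library, at least 50% of a region covered, other promoter and word windows, regions within 50 kb, a width-weighted fold, a replicate block and each library left out.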

Additional observations from a re-analysis of the deposited data

How the results depend on the processing

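The number of Th9-only regions depended most on which Th9 library was asked for. It was 38655 with either Th9 library and 419 with a −log10 q of at least 5. With 1 library left out it ran from 3424 to 28837, the highest without Th9 replicate 3 and next 13369 without Th9 replicate 1. The promoter share was 4.30% at a −log10 q of at least 5, 2.54% with lists of equal length, 1.19% with either Th9 library, 3.25% with at least 50% of a region covered, 4.75% for promoters of 2000 bp on either side and 3.93% with starts of all annotated genes. It ran from 0.957% to 3.12% with 1 library left out. The AP-1 share was 14.3% at a −log10 q of at least 5, 9.80% with at least 50% covered, 5.47% in a window of 200 bp and 16.0% in the whole region, and 7.48% to 9.59% with 1 library left out. The share of neighbours that were members was 3.10% at a −log10 q of at least 5, where 0.576% of all regions were members, and 27.6% with either Th9 library, where 17.1% were. With 1 library left out it ran from 4.23% to 24.3%, and stood above the share of members among all regions each time.

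The STAT share of members of 60 and over was 30.3% at a −log10 q of at least 5, 16.2% with either Th9 library, 30.2% with at least 50% covered, 31.2% in a window of 200 bp and 52.3% in the whole region. It ran from 14.9% to 36.4% with 1 library left out, the lowest without Th9 replicate 3. The NF-κB share was 2.45% with either Th9 library and ran from 2.44% to 7.003% with 1 library left out. The cause of these moves was not tested, apart from the number of regions and the window, which the settings themselves change. The strength of regions near members kept its direction in all 12 alternatives, from 1.04 to 3.27 points. In each of these the near regions were again picked through the Th9 calls. Within replicate numbers (the replicate block) the difference was 1.23 points with p = 0.111, the smallest of 9 arrangements, in a one-sided exact permutation test. With regions within 50 kb p was 0.133, and over the alternatives p ran from 0.0667 to 0.2. Nothing in the labels says that a shared number pairs the libraries. With 2 libraries per subset and no read totals, a region without a call may still be accessible.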

Other observations

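The share of regions that were Th9-only differed between chromosomes, from 0.740% of 15955 regions on chromosome 3 to 2.25% of 6524 regions on chromosome 15.

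Regions with the NF-κB word that were called in all 6 libraries numbered 523. Their mean percentile minus that of the regions without the word was 1.65 in Th9 replicate 1 and 1.48 in Th9 replicate 3, against -0.52 and 1.42 in Th2 replicates 1 and 3 and 0.35 and -1.70 in Th17 replicates 1 and 3. The Th9 mean exceeded that of the other 4 by 1.67 points (one-sided exact permutation test over libraries, p = 0.0667, the smallest the design allows). The comparison was chosen after the values were seen.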
